A study of Rattus norvegicus with 20 samples.

Results

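The libraries described here are the 8 of 20 nucleus accumbens RNA-seq libraries chosen by a raw Cend1 count of 50 or less, called Cend1-low. They were set against the 12 libraries with a Cend1 count above 50, called Cend1-high. Each library came from 1 male Sprague-Dawley rat, 7 to 9 weeks old, housed 2 per cage. Every rat self-administered cocaine, so no group lacked the drug. The drinking solution held short-chain fatty acids with antibiotics (Abx_SCFA, n = 5), short-chain fatty acids alone (SCFA, n = 6), antibiotics alone (Abx, n = 4) or neither (H2O, n = 5). The Cend1-low libraries were the 6 SCFA libraries, H2O replicate 4 and Abx_SCFA replicate 5. The Cend1-high libraries were 4 each of H2O, Abx and Abx_SCFA. All SCFA libraries were therefore low and no Abx library was, so within those groups class and treatment cannot be told apart, and over all 20 libraries they are partly confounded. Both classes occurred in H2O and Abx_SCFA, each with 1 low library. The labels do not tie rats to cages, and p-values measure the spread between these libraries.

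Cend1 encodes a neuronal membrane protein known for promoting exit from the cell cycle and differentiation of neuronal precursors. The nucleus accumbens is the ventral part of the striatum, made mostly of GABAergic medium spiny neurons with D1 or D2 dopamine receptors, and it takes part in reward and drug seeking. Bacteria of the gut make short-chain fatty acids from dietary fibre, and broad antibiotics deplete them.

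The Cend1 counts chose the libraries and are given as a description only. They were 4, 9, 8, 9, 14 and 10 in SCFA replicates 1 to 6, 7 in H2O replicate 4 and 8 in Abx_SCFA replicate 5. In the 12 Cend1-high libraries they ran from 88 to 240, with a median of 135. The values nearest the threshold were 14 in SCFA replicate 5 on the low side and 88 in H2O replicate 3 on the high side, and no library lay between them. Cend1 itself was left out of everything that follows.

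Total counts were 17946132 to 25731636 in the Cend1-low libraries and 17525358 to 25366231 in the Cend1-high libraries. The low libraries had 14107 to 14311 genes with a count and the high libraries 14033 to 14263. In CPM, the unit of counts scaled to library size, Drd1 (the D1 dopamine receptor) averaged 310 ± 86.0 CPM in low and 389 ± 56.6 CPM in high libraries, and Drd2, the D2 receptor, 177 ± 47.8 CPM in low and 221 ± 25.4 CPM in high libraries (SD, n = 8 and 12), so markers of the labelled tissue were present in both classes.

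Of 12845 genes tested, 6 symbols differed between Cend1-low and Cend1-high libraries (0.0467% of genes tested; edgeR quasi-likelihood test, Benjamini-Hochberg adjusted p below 0.05). RragB, Tsen34, Tsen34l1, Commd5 and Arid4b were lower in the low libraries (0.0389% of genes tested) and Dgcr2 was higher (0.00779%). At an unadjusted p below 0.05 there were 1144 genes (8.91%), 579 higher and 565 lower. The median log2 fold change over all genes tested was 0.01, and 6962 of the 12845 were positive. Tsen34 and Tsen34l1 shared nearly all their counts, so the 6 symbols carry 5 separate readouts. A Cend1 threshold of 100 would add H2O replicate 3 and Abx replicate 3 to the low libraries, and edgeR then called no gene (252 at an unadjusted p below 0.05). These genes have diverse roles: amino acid sensing at the lysosome (RragB), tRNA splicing (Tsen34), endosomal recycling (Commd5), chromatin (Arid4b) and the cell surface (Dgcr2).

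**Figure D1:**
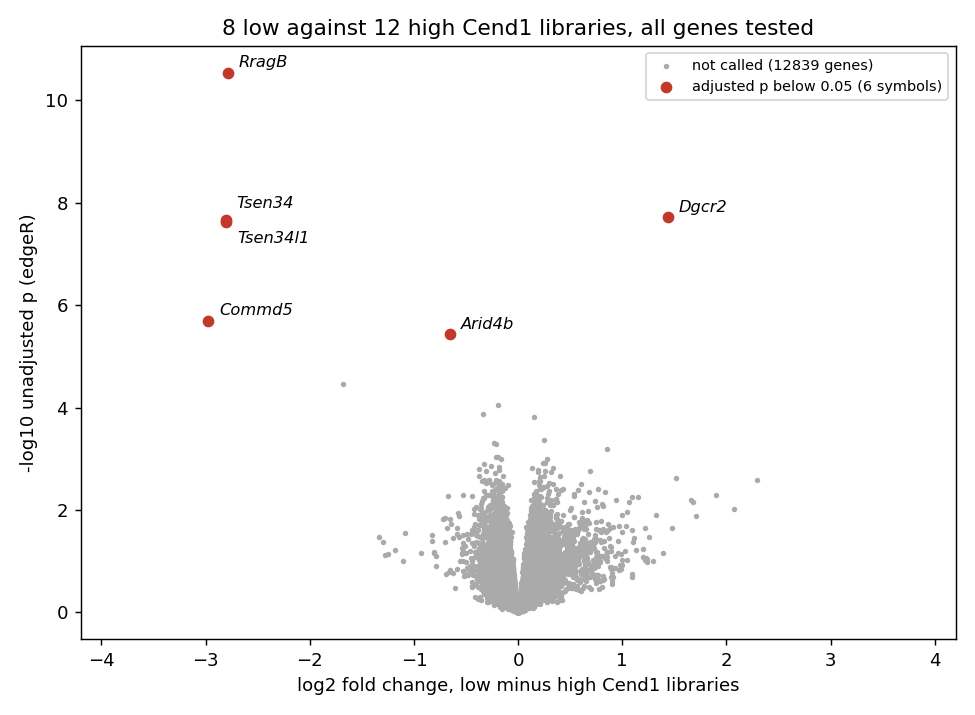
Low against high for every gene tested: the x axis is the log2 fold change, Cend1-low over Cend1-high, and the y axis is the −log10 of the unadjusted edgeR p. The 6 called symbols stand out from the 12845 points, with only Dgcr2 on the higher side.

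Promoter windows of the called genes, shown because these genes split the libraries together, could be read for 2 of the 6 symbols. The windows are those of RefSeq GRCr8, 250 bases before and 50 after the gene start, on the minus strand, at chr1:74439745-74440044 for Tsen34 and chr17:55958333-55958632 for Arid4b. Capitals mark matches, on either strand, to 1 of 5 motifs that were searched. These are the CCAAT box CCAAT, the GC box GGGCGG, the TATA box TATAAA, the cAMP response element TGACGTCA and the ETS core CGGAAG.
Tsen34: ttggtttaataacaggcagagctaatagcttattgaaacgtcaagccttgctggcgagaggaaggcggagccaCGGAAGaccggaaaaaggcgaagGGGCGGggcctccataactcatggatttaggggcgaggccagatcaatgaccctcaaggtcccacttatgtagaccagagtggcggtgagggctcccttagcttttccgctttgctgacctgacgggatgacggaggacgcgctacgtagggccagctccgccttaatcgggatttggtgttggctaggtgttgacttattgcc
Arid4b: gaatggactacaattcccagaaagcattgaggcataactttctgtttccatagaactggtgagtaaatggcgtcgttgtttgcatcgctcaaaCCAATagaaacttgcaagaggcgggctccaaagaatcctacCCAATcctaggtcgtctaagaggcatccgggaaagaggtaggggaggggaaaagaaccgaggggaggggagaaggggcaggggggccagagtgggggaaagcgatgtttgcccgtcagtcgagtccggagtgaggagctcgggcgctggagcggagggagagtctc
The printed Tsen34 window held 1 GC box and 1 ETS core, and the Arid4b window held 2 CCAAT boxes, so these printed windows shared no motif. Among all 33469 windows of that length, 33.1% held a GC box, 16.6% an ETS core, 37.5% a CCAAT box, 14.2% a TATA box and 1.83% the cAMP response element. A second Tsen34 window, not printed, held 3 GC boxes and 1 CCAAT box, and so shared the CCAAT box with Arid4b.

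RragB had the smallest p of the genes tested. It encodes a Rag GTPase, 1 partner of the heterodimer that recruits mTORC1 to the lysosome when amino acids are plentiful. RragB counts were 4, 23, 10, 11, 15 and 8 in SCFA replicates 1 to 6, 6 in H2O replicate 4 and 19 in Abx_SCFA replicate 5. In Cend1-high libraries RragB ran from 59 to 131 counts, with a median of 77.5. Every low library lay below every high library, by 0.97 on the log2(CPM + 0.5) scale between the nearest pair. RragB averaged 0.550 ± 0.307 CPM in low and 3.82 ± 0.850 CPM in high libraries (SD, n = 8 and 12), a log2 fold change of −2.78 ± 0.23 (SE; edgeR adjusted p = 3.72e-07). The high libraries of the 3 treatments covered a like range, 59 to 84 counts in H2O, 66 to 131 in Abx and 59 to 94 in Abx_SCFA.

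No other member of that pathway was called. Of the 33 tested genes of Rag GTPase and amino acid sensing, RragB was the only one past the threshold, 13 of 33 were positive and the median log2 fold change was −0.02, against 0.01 for all genes tested. Rraga, the close paralogue of RragB, averaged 99.3 ± 5.57 CPM in low and 105.5 ± 9.37 CPM in high libraries, a log2 fold change of −0.09 ± 0.05 (edgeR adjusted p = 0.605). Rragc and Rragd encode the GTPases that pair with these proteins. Their log2 fold changes were −0.05 ± 0.04 and −0.23 ± 0.08 (edgeR adjusted p = 0.681 and 0.545). How the counting step treated reads that fit both of these close paralogues is not known, so the RragB level is uncertain to that extent.

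Tsen34 encodes a catalytic subunit of the endonuclease that cuts introns out of precursor tRNAs. Tsen34 counts were 7, 4, 10, 39, 9 and 8 in SCFA replicates 1 to 6, 4 in H2O replicate 4 and 11 in Abx_SCFA replicate 5. In Cend1-high libraries they ran from 55 to 155, with a median of 66. No low library reached the lowest high library, and SCFA replicate 4 stood apart from the other 7 low libraries. Tsen34 averaged 0.516 ± 0.478 CPM in low and 3.69 ± 1.36 CPM in high libraries (SD, n = 8 and 12), a log2 fold change of −2.80 ± 0.33 (SE; edgeR adjusted p = 7.5e-05). Tsen34l1 held 92 counts over the low libraries, as did Tsen34, and 915 against the 918 of Tsen34 over the high ones. RefSeq lists Tsen34l1 as a synonym of Tsen34 in GRCr8, so the second symbol adds no separate measurement.

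Tsen15 and Tsen54 encode structural subunits of the same endonuclease, and neither was called. Their log2 fold changes were 0.16 ± 0.07 for Tsen15 and −0.11 ± 0.09 for Tsen54 (edgeR adjusted p = 0.545 and 0.732). Of the 11 tested genes of tRNA splicing, the 2 Tsen34 symbols were the only ones called, 6 were positive and the median was 0.03.

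Tsen34 also varied inside each class beside Pirb, an immunoglobulin-like receptor gene of immune cells that lies near Tsen34 in GRCr8, a relation seen only after the values were examined. In Abx_SCFA replicate 3, Abx replicate 3 and SCFA replicate 4, Pirb had 2, 1 and 2 counts, while the other 17 libraries had 12 to 33. Those 3 libraries had the highest Tsen34 counts of their class, 155, 112 and 39. The other 7 low libraries had 4 to 11 Tsen34 counts and the other 10 high libraries 55 to 74. The 3 libraries low in Pirb thus included both Cend1 classes.

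**Figure D2:**
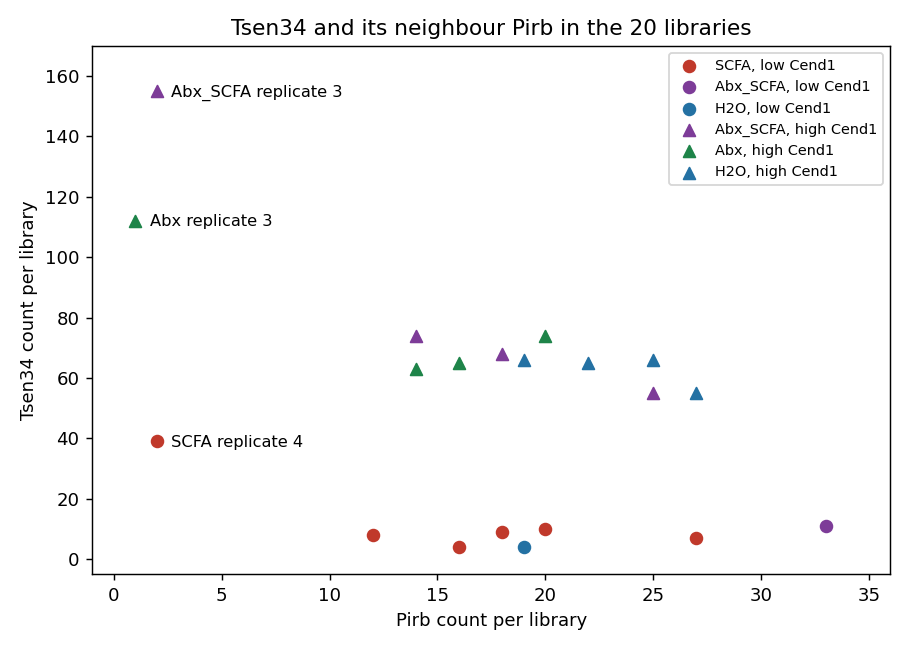
Raw counts of Tsen34 (y axis) against raw counts of Pirb (x axis), 1 point per library, with circles for Cend1-low and triangles for Cend1-high. The 3 libraries with 1 or 2 Pirb counts lie above the rest of their own class, at 39, 112 and 155 Tsen34 counts.

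Dgcr2 was the gene that rose in the Cend1-low libraries. It encodes an adhesion-receptor-like membrane protein, and its human counterpart lies in the region lost in the DiGeorge deletion. Dgcr2 counts were 46, 43, 28, 48, 43 and 44 in SCFA replicates 1 to 6, 33 in H2O replicate 4 and 37 in Abx_SCFA replicate 5. In Cend1-high libraries they ran from 8 to 21, with a median of 13.5. All 8 low libraries lay above all 12 high libraries. Dgcr2 averaged 1.87 ± 0.398 CPM in low and 0.686 ± 0.180 CPM in high libraries (SD, n = 8 and 12), a log2 fold change of 1.44 ± 0.17 (SE; edgeR adjusted p = 7.5e-05), or 2.73-fold on the CPM means. Among 26 tested genes of the 22q11-like region, Dgcr2 was the only one called, 14 were positive and the median log2 fold change was 0.01, or −0.03 with treatment in the model.

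The other called genes were Commd5 and Arid4b. Commd5 encodes a COMM domain subunit of the Commander complex, which returns membrane proteins from endosomes to the cell surface. Commd5 had 1, 2, 1, 0, 2 and 0 counts in SCFA replicates 1 to 6, 0 in H2O replicate 4 and 3 in Abx_SCFA replicate 5, and 2 to 16 counts, with a median of 9, in Cend1-high libraries. The classes overlapped in 1 library, H2O replicate 1 with 2 counts, and every low library was at or under the floor of 3 counts. The log2 fold change of Commd5 was −2.97 ± 0.47 (SE; edgeR adjusted p = 0.0052), and with so few counts its size depends on the prior count added in the fit. Of 14 tested Commander genes, a list drawn up because Commd5 was called, Commd5 alone was called and the median was 0.00.

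Arid4b encodes an ARID domain subunit of the Sin3 histone deacetylase complex. Arid4b had 59 to 95 counts, median 75, in the Cend1-low libraries and 86 to 164, median 109.5, in the Cend1-high libraries. In CPM the classes met without overlapping, at 4.55 in SCFA replicate 1 and 4.58 in Abx_SCFA replicate 2. Arid4b averaged 3.45 ± 0.650 CPM in low and 5.42 ± 0.688 CPM in high libraries (SD, n = 8 and 12), a log2 fold change of −0.65 ± 0.11 (SE; edgeR adjusted p = 0.00787). Of 12 tested Sin3 genes, also listed because of this call, Arid4b alone was called and the median was −0.05. Hdac1, a deacetylase of that complex, had a log2 fold change of 0.18 ± 0.06 (edgeR adjusted p = 0.545).

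**Figure D3:**
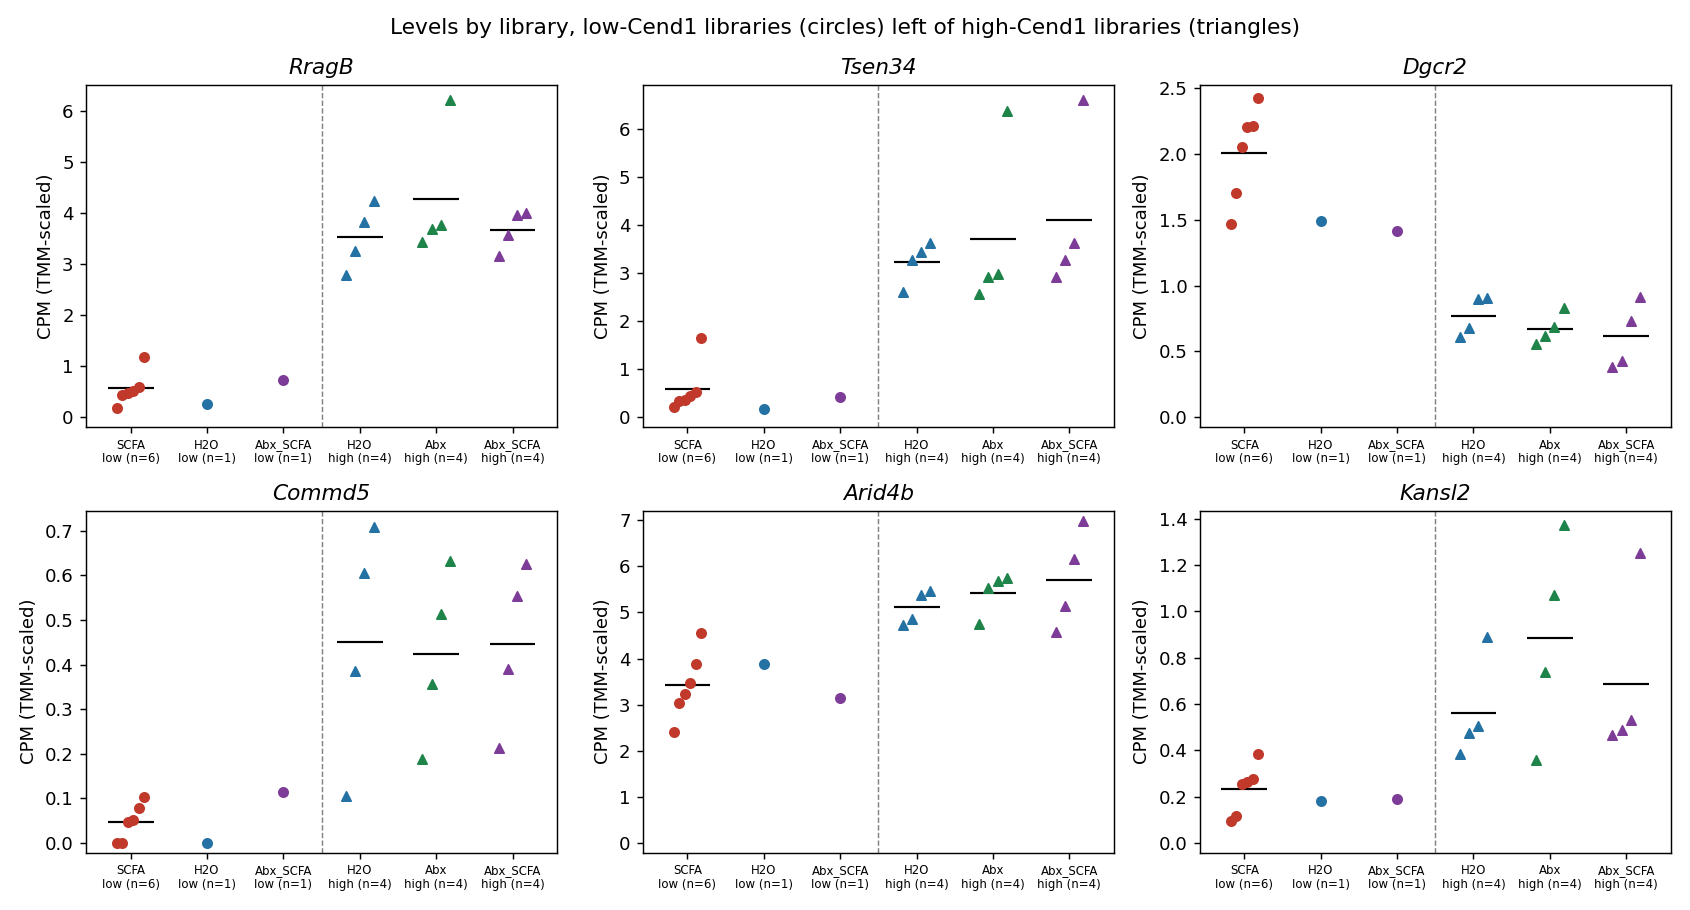
CPM (y axis) of RragB, Tsen34, Dgcr2, Commd5, Arid4b and Kansl2 in each library, by treatment and class on the x axis, circles for Cend1-low and triangles for Cend1-high, with bars at the means. H2O replicate 4 and Abx_SCFA replicate 5 lie within or close to the range of the 6 SCFA libraries for RragB, Tsen34 and Dgcr2, apart from the other libraries of their own treatments.

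Genes that separated all 20 libraries were few. The CPM of 5 symbols did not overlap between the classes (0.0389% of genes tested): RragB, Tsen34, Tsen34l1 and Arid4b were lower in the low libraries (0.0311%) and Dgcr2 was higher (0.00779%). A further 5 of the 12845 genes tested misplaced 1 library, where each gene was given its own best cut. Commd5, Kansl2 and Tars were lower, and Arhgap12 and Nadk2 were higher, and edgeR called only Commd5 among them. With 2 libraries misplaced there were 32 lower and 20 higher genes, and with 3 there were 168 lower and 134 higher. Kansl2, a subunit of the NSL histone acetyltransferase complex, had 2 to 9 counts in low and 7 to 29 counts in high libraries, with a log2 fold change of −1.68 ± 0.32 (SE; edgeR adjusted p = 0.064; DESeq2 adjusted p = 0.00616). Kansl2 falls outside the rule for named genes and was singled out after its values were seen. None of the 8 tested NSL genes, Kansl2 included, was called by edgeR.

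**Figure D4:**
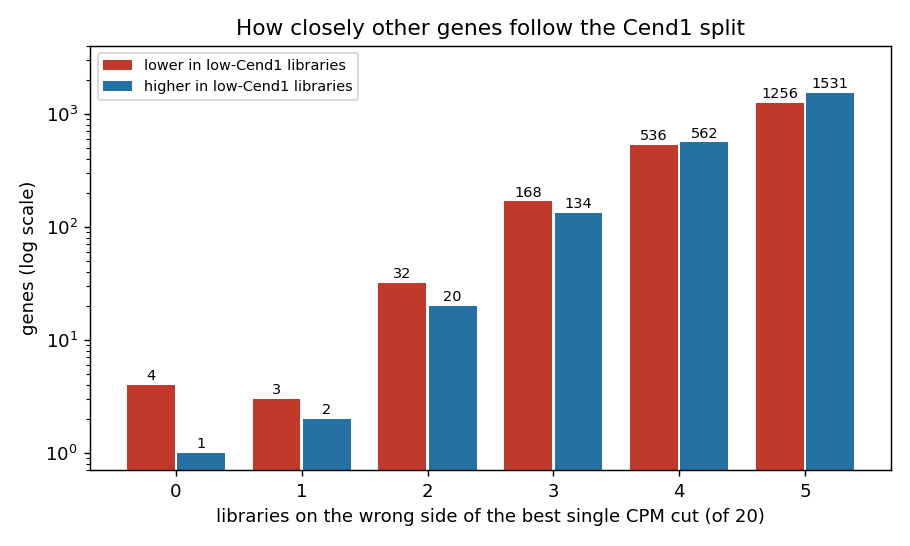
Number of genes (y axis, log scale) by the number of libraries on the wrong side of the best CPM cut (x axis), for genes lower and higher in Cend1-low libraries. The counts climb from 4 lower and 1 higher gene with none misplaced to 32 and 20 with 2 misplaced.

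Treatment and class were then set in 1 model, where the low minus high coefficient rests on H2O replicate 4 against 4 other H2O libraries and on Abx_SCFA replicate 5 against 4 other Abx_SCFA libraries. RragB alone was called (0.00779% of genes tested), with a log2 fold change of −2.83 ± 0.44 (SE; edgeR adjusted p = 0.0443). There were 156 genes at an unadjusted p below 0.05 (1.21%). Tsen34 had a log2 fold change of −3.59 ± 0.66 (edgeR adjusted p = 0.143), Dgcr2 1.07 ± 0.27, Commd5 −2.79 ± 0.86 and Arid4b −0.63 ± 0.20 (adjusted p = 1 for the last 3). Without the SCFA libraries, edgeR called RragB (−2.89 ± 0.34, adjusted p = 0.00279), Tsen34 and Tsen34l1 (Tsen34 −3.55 ± 0.49, adjusted p = 0.00778) and no longer Dgcr2 (1.08 ± 0.28), Commd5 or Arid4b (adjusted p = 1 for these 3). Without H2O replicate 4 and Abx_SCFA replicate 5 the Arid4b call alone was lost. With treatment as a term, the sign of all 5 was that of the comparison without it. Removing any 1 library other than Abx replicate 2 or SCFA replicates 1, 2 and 4 ended the RragB call (16 of 20 removals), with log2 fold changes from −3.68 to −2.33 over the 20 removals. Without Abx_SCFA replicate 5 the log2 fold change was −6.28 for Commd5 and −0.41 for Arid4b, and without H2O replicate 4 it was −1.92 for Commd5 and −0.87 for Arid4b. With 1 low library in each of these groups, the spread of a low library is taken from the other libraries, and whether the class difference varies between Abx_SCFA and H2O could not be judged.

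By the label alone, SCFA against the mean of the other 3 groups, no gene was called (0%; edgeR, smallest adjusted p = 0.0703), while 1595 genes had an unadjusted p below 0.05 (12.4%), 959 higher and 636 lower. In that contrast H2O replicate 4 and Abx_SCFA replicate 5 count with their own treatments. The log2 fold change was −2.55 ± 0.46 for RragB, −2.40 ± 0.57 for Tsen34 and 1.34 ± 0.22 for Dgcr2 (edgeR adjusted p = 0.154, 0.334 and 0.0703). It was −2.88 ± 0.70 for Commd5 and −0.59 ± 0.15 for Arid4b (edgeR adjusted p = 0.334 for both). limma-voom called 1 gene, Dgcr2, and DESeq2 called 7. The contrasts share libraries, so their values stand side by side only.

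**Figure D5:**
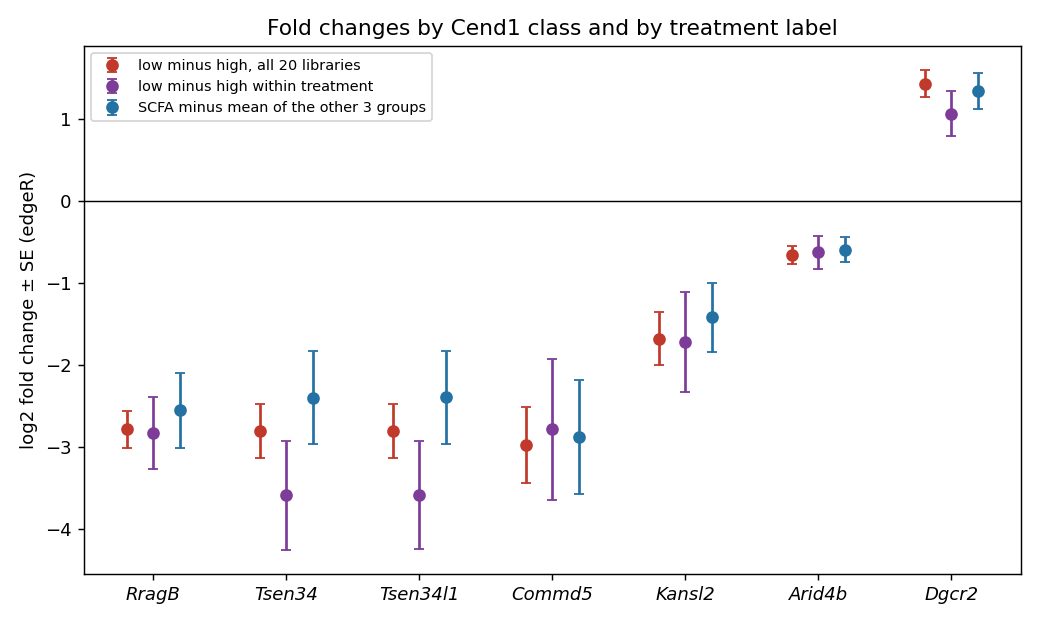
Log2 fold changes with standard errors (y axis) of 7 symbols (x axis) in the low against high comparison, in the same comparison with treatment in the model, and for SCFA against the other groups. RragB sits at −2.78, −2.83 and −2.55, and Dgcr2 at 1.44, 1.07 and 1.34.

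The rat numbers in the labels run in 3 series, and the low libraries were not spread over them evenly. The 400 series held 7 low and 4 high libraries, the 300 series 1 low and 4 high, and the 200 series no low library. What the series stand for is not given in the labels. All SCFA and Abx_SCFA rats were in the 400 series, and all H2O and Abx rats in the 200 or 300 series. The 400 series and fatty acid drinking therefore cannot be told apart. Within the 400 series all high libraries were Abx_SCFA, and the low libraries were SCFA except Abx_SCFA replicate 5. Class there is thus nearly confounded with antibiotics. The low minus high difference in mean log2 CPM within that series was −2.58 for RragB, −2.83 for Tsen34, 1.56 for Dgcr2 and −0.74 for Arid4b. Within the 300 series it was −3.24 for RragB, −3.77 for Tsen34, 0.91 for Dgcr2 and −0.50 for Arid4b, with H2O replicate 4 as the lone low library. In the 400 series alone, a comparison added after the data were seen, RragB was the 1 gene called. Its log2 fold change was −2.62 (edgeR adjusted p = 0.012). That comparison is nearly SCFA against Abx_SCFA. With the number series as a term, which also carries fatty acid drinking, the same 6 symbols were called over all 20 libraries.

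None of the tested genes that lie beside the split genes on the chromosomes was called. Of the 3 nearest genes on each side of Cend1, RragB, Dgcr2, Tsen34 and Commd5 in RefSeq GRCr8, 13 were tested. Their log2 fold changes ran from −0.38 (Rps9, which shares identical counts with another symbol) to 0.07 (Rplp2), and the smallest edgeR adjusted p was 0.545. At an unadjusted p below 0.05 there was 1 gene, Ubqln2, with a log2 fold change of −0.13 ± 0.05. Slc25a22, which overlaps Cend1 in that annotation, had 7 to 20 counts in low and 4 to 22 counts in high libraries.

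Gene groups around the function of Cend1 were described by counts. Of 38 tested genes of cell cycle exit and neuronal differentiation, 27 were positive, the median log2 fold change was 0.05 and none was called by edgeR, with 6 higher and 1 lower at an unadjusted p below 0.05. Of 28 proliferation genes, all 28 were positive with a median of 0.43 and none was called, with 9 higher at an unadjusted p below 0.05. Over all 12845 genes tested, 6962 were positive, and 579 were higher and 565 lower at that p. The summed level of the proliferation genes was 219 to 679 CPM in low and 212 to 340 CPM in high libraries, so the classes overlapped. H2O replicate 4 had 240 CPM and Abx_SCFA replicate 5 had 315 CPM, both within the range of the high libraries. For SCFA against the other groups the median of the proliferation genes was 0.543. With treatment in the model the median of the proliferation genes was 0.08 and that of the cell cycle exit genes changed sign, at −0.01.

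No cell type marker was called by edgeR, while several lists lay mostly on 1 side of 0. All 25 pan medium spiny neuron genes were negative, with a median log2 fold change of −0.23 and 12 lower at an unadjusted p below 0.05. Over all 12845 genes tested, 6962 were positive and 565 were lower at that p. The summed level of the 25 genes was 8460 to 16400 CPM in low and 12200 to 17100 CPM in high libraries. H2O replicate 4 had 13200 CPM and Abx_SCFA replicate 5 had 14700 CPM, both within the range of the high libraries. For SCFA against the other groups the median of these genes was −0.275. The median was −0.20 for 11 D1 neuron genes, with 8 negative, and −0.31 for 12 D2 neuron genes, with 11 negative. Cortical excitatory neuron genes had a median of 0.71, with 11 of 13 positive, and a median of 1.24 for SCFA against the other groups. Their summed level was 308 to 2330 CPM (median 581) in low and 246 to 1170 CPM (median 583) in high libraries. It was 308 CPM in H2O replicate 4 and 657 CPM in Abx_SCFA replicate 5, both within the range of the high libraries. All 25 oligodendrocyte and myelin genes were positive, with a median of 0.15 and summed levels of 7400 to 28000 CPM in low and 7930 to 26000 CPM in high libraries. With treatment in the model the medians were −0.10 for pan medium spiny neuron, −0.03 for D1 neuron and −0.19 for D2 neuron genes, and they turned in sign for cortical (−0.25) and oligodendrocyte genes (−0.02). Fewer cells of a type and less RNA per cell cannot be told apart in such bulk tissue. The same 6 symbols were called with the scaled mean log2 CPM of the cortical genes as a covariate. The part of the other marker lists in these calls was not tested.

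In the remaining cell type and tissue lists none of the genes was called. The median log2 fold change was −0.01 for 15 striatal interneuron genes, 0.10 for 9 oligodendrocyte precursor, 0.08 for 16 astrocyte, 0.03 for 16 microglia and 0.08 for 20 endothelial and pericyte genes. It was −0.01 for 10 meningeal genes, 0.10 for 5 blood genes, 0.18 for 12 genes of septum, pallidum and other deep nuclei, 0.46 for 9 ependymal genes and 0.24 for 4 choroid plexus genes. With treatment in the model the median turned in sign for striatal interneuron (0.08), oligodendrocyte precursor (−0.05), microglia (−0.03), meningeal (0.11), blood (−0.41), ependymal (−0.05) and choroid plexus genes (−0.06). It was then 0.05 for astrocyte, 0.09 for endothelial and pericyte, and 0.09 for septum, pallidum and other deep nuclei genes.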

How the data were processed

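RNA from the nucleus accumbens of 20 rats was measured by polyA RNA-seq with a SMARTer cDNA kit, per the labels. The deposited values are raw counts per gene symbol, 1 column per library, as the authors left them. The submitters' processing notes list the build Rnor_6.0 and the tools limma, STAR 2.4.0 and FastQC 0.11.6; the counting tool, annotation and strand setting were not given in the sources used here.

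Of 17296 symbols, 1822 had no count in any library. Genes were kept by edgeR's filterByExpr (minimum count 10, minimum total 15, by treatment), which left 12845 without Cend1. Low and high libraries were compared with edgeR's quasi-likelihood F test (robust) after TMM scaling, with p-values adjusted over all genes by Benjamini-Hochberg and called below 0.05. The same test was run with treatment as a term and for SCFA against the other groups. CPM are TMM-scaled, and gaps use CPM + 0.5. R 4.3.3, edgeR 4.0.16, limma 3.58.1 and DESeq2 1.42.0 were used. A floor of 3 counts was 0.115 to 0.171 CPM, for counting error only. No 2 of the 190 library pairs agreed within sampling noise (smallest chi-square per gene 6.59).

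Genes are named if called, if not overlapping between classes, if called within treatment, if neighbouring a gene at least 2-fold different, or if known beforehand (RragB, Tsen34, Tsen34l1 and Dgcr2). The libraries, genes and lists were chosen with earlier results of these data known, so these patterns are not independent support. Both tests were tested on simulated data with known changes. Low against high recovered 91 of 100 changes of 1 log2 unit and 100 of 100 of 2 units, with 11 false calls. With treatment as a term it was 76 and 92 of 100, with 14 false calls. Of the symbols, 16946 matched a current symbol or synonym in RefSeq GRCr8, which was used for names, neighbours and promoter windows only. Alternatives covered scaling, filter, test, threshold, covariates and left-out libraries.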

Additional observations from a re-analysis of the deposited data

Results flagged for a closer look

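Single libraries stood apart from their group for 3 of the 6 called symbols. The measure was a 95% gap criterion (Dixon) applied to 30 sets of libraries. Chance marks about 1 in 20 independent sets. These sets are not independent, since Tsen34 and Tsen34l1 share nearly all counts and the SCFA libraries are all Cend1-low. RragB was at 0.727 CPM in Abx_SCFA replicate 5, against 3.15 to 4 CPM in the other 4 Abx_SCFA libraries, and is the Cend1-low library of that group. RragB was also at 6.20 CPM in Abx replicate 2, against 3.43 to 3.76 CPM in the other Abx libraries. Tsen34 was at 6.38 CPM in Abx replicate 3, against 2.57 to 2.98 CPM in the other Abx libraries, and Tsen34l1 was at 6.38 CPM against 2.53 to 2.98 CPM. Tsen34 and Tsen34l1 were both at 1.66 CPM in SCFA replicate 4. The other SCFA libraries had 0.206 to 0.524 CPM and the other 7 Cend1-low libraries 0.180 to 0.524 CPM of each. Abx replicate 3 and SCFA replicate 4 are among the 3 libraries with 1 or 2 Pirb counts.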

How the results depend on the processing

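The low against high count of 6 was 10 with DESeq2 (which added Arhgap12, Hsp90aa1, Kansl2 and Tars), 3 without all SCFA libraries (RragB, Tsen34 and Tsen34l1), 1 within the 400 number series, and 0 with a Cend1 threshold of 100 (edgeR, 252 genes at an unadjusted p below 0.05), which moved H2O replicate 3 and Abx replicate 3 into the low class. Leaving out 1 library gave 6 to 7 calls, and 5 to 7 genes without overlap. All 6 symbols stayed called in all 20 such refits, with highest edgeR adjusted p of 2.89e-06 for RragB, 0.000419 for Dgcr2, 0.000493 for Tsen34, 0.0154 for Commd5 and 0.0297 for Arid4b. Without both H2O replicate 4 and Abx_SCFA replicate 5 there were 5 calls, and Arid4b was not among them. With treatment in the model the count of 1 was 0 with limma-voom (185 genes at an unadjusted p below 0.05), 4 with DESeq2 (RragB, Ccdc77, Tsen34 and Tsen34l1) and 0 to 3 on leaving out 1 library (3 without SCFA replicate 4). Ccdc77 was high in H2O replicate 4 only (17.6 CPM, against 4.93 CPM in Abx_SCFA replicate 5). Without H2O replicate 4 the gene counted was Zfp61, and without Abx_SCFA replicate 5 it was Ccdc77, not RragB. Class then rests on 1 low library. The SCFA count of 0 was 1 with limma-voom, 7 with DESeq2 and 0 to 2 on leaving out 1 library, above 0 only without H2O replicate 4 or Abx_SCFA replicate 5. Apart from the changes named here, no count moved by over 1.5 times under RLE scaling, no filter or the covariates (number series, cortical level), and no fold change of a called gene or Kansl2 changed sign under any alternative run. Of 23 list medians, 12 changed sign with treatment in the model, among them the cortical list (0.71 without that term, −0.25 with it). With the cortical level as a covariate 3 changed sign, the cortical list (−0.07) included. That covariate is the mean of the same cortical genes, which leaves their median near 0 by construction. The causes were not tested. No paired analysis was possible because the labels give each rat a number of its own, and the replicate numbers used here only name libraries in accession order. Depth limits Commd5 in particular, which rests on 9 counts over the 8 low and 112 over the 12 high libraries.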

Other observations

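A further split was seen beneath the count filter, where the share of genes without overlap was not counted. Zfp697, a zinc finger gene, had 0 to 1 counts (2 in total) over the Cend1-low libraries. It had 3 to 12 counts (81 in total) over the Cend1-high libraries, without overlap. The lowest Cend1-high libraries were thus at the floor of 3 counts. Zfp697 was called when no filter was used (edgeR adjusted p = 8.37e-05). Fgfbp1, which encodes a binding protein for fibroblast growth factors, went the other way, with 0 to 6 counts (22 in total) in low and 0 to 1 counts (1 in total) in high libraries (edgeR adjusted p = 0.0368). These genes were looked at after their values were seen.

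In the low libraries outside SCFA, a pair of genes chosen after their values were seen stood apart. Ccdc77 had 391 counts (17.6 CPM) in H2O replicate 4, against 3.47 to 5.02 CPM in the other H2O libraries, and 4.93 CPM in Abx_SCFA replicate 5, where the remaining Abx_SCFA rats had 3.24 to 4.72 CPM. Zfp61 had 1582 counts (60.5 CPM) in Abx_SCFA replicate 5, where the remaining Abx_SCFA rats had 30.7 to 37.2 CPM, and it was at 34.4 CPM in H2O replicate 4, within the 32.1 to 36.1 CPM of the other H2O libraries. Each of these high values is that of 1 library, so no test is given.

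Some genes that DESeq2 called in the low against high comparison, and edgeR did not, were picked out after their values were seen. Tars (threonyl-tRNA synthetase) had a log2 fold change of −0.19 ± 0.04 and Hsp90aa1 (an inducible cytosolic chaperone) of −0.34 ± 0.07 (SE; edgeR adjusted p = 0.141 and 0.194). Arhgap12 went the other way, at 0.15 ± 0.03 (edgeR adjusted p = 0.194).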
